A study of Homo sapiens with 39 samples.

Results

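Insulin-like growth factor (IGF) signalling was followed through 10 genes, 1 ligand (IGF2), 5 binding proteins (IGFBP1, IGFBP2, IGFBP3, IGFBP4 and IGFBP6), 2 receptors (IGF1R and INSR) and 2 receptor substrates (IRS1 and IRS2). They were taken by gene name, 10 of the 45435 gene rows of the deposited tables, and each has 1 row in all 13 tables. The cells were HCT116, a human colorectal cancer line, in a Flp-In T-REx derivative in which a single construct can be placed at 1 genomic site and switched on with doxycycline. Parental cells without a construct were compared with 12 lines, each carrying 1 of the 12 human isoforms of hepatocyte nuclear factor 4 alpha (HNF4A) fused at its C-terminus to GFP, with 3 RNA libraries per group and 39 in all. All groups, parental cells included, received doxycycline at 2.5 µg/ml for 48 h, with the selection antibiotics withdrawn during that time. Until then blasticidin was in the medium of every group, together with zeocin for parental cells and hygromycin for the isoform lines. Each isoform is represented by 1 line, and a line with GFP alone is not among the samples, so the isoform, the line, GFP and the earlier antibiotic cannot be told apart. The labels do not say whether the 3 libraries of a group came from separate cultures, so the p-values measure the spread between these libraries.

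IGF2 is a secreted growth factor that signals through the IGF1 receptor and through one splice form of the insulin receptor. Most of it is carried outside cells by the IGF binding proteins, which lengthen its life and limit its access to receptors. IGFBP6 prefers IGF2 over IGF1, and IGFBP1 is a liver protein whose gene insulin represses. The activated receptors phosphorylate the IRS adaptors, which recruit phosphatidylinositol 3-kinase and so switch on AKT. HNF4A is a nuclear receptor that drives hepatic and intestinal epithelial programmes. Loss of imprinting of IGF2 is a known feature of some colorectal tumours.

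Values are TPM, transcript abundances scaled to transcript length and to the library's total, so levels of different genes may be set side by side. A TPM value does not show how many reads lie behind it. Total HNF4A was 31.47 ± 0.589 TPM (SD, n = 3) in parental cells. The line means ran from 613.5 TPM for isoform 2 to 1071 TPM for isoform 6. Replicate 1 of the isoform 3 line stood apart, with HNF4A at 406.9 TPM where replicates 2 and 3 had 833.5 and 771.8 TPM. Of the lists of cell-type markers, all 6 epithelial markers were expressed, with sums of 2600 to 5823 TPM per library. That sum averaged 5632 TPM in isoform 1, the line with the most member calls, against 3185 to 3311 TPM in the parental libraries, and its part in the results was not tested. Of the 16 markers of fibroblasts, leukocytes, endothelium and hepatocytes, 3 averaged 1 TPM or more: COL1A1, PECAM1 and CPS1. The hepatocyte markers ALB, CYP3A4 and TAT reached at most 0.659, 0.11 and 0.293 TPM, while CPS1, also on that list, ran from 10.6 to 23.4 TPM. In bulk RNA, fewer cells with a transcript and less of it per cell cannot be told apart.

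Promoters of 4 members are shown because their genes shifted (IGFBP6, INSR, IGFBP4) or because the window holds a searched element (IRS2). The windows, from RefSeq on GRCh38.p14, run from 250 bases before to 50 bases after an annotated start, 5′ to 3′ along the gene. Capitals mark matches on either strand to the GC box GGGCGG, to CAAAG and, in IRS2 alone, to the element CAAAACAA.
IGFBP6, chr12:53097417-53097716, plus strand: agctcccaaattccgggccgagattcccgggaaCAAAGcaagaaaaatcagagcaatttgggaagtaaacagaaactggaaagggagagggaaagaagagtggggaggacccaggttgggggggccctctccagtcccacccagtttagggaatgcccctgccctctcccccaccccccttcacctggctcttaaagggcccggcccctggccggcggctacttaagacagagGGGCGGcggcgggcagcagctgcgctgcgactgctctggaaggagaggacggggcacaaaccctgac
INSR, chr19:7294365-7294664, minus strand: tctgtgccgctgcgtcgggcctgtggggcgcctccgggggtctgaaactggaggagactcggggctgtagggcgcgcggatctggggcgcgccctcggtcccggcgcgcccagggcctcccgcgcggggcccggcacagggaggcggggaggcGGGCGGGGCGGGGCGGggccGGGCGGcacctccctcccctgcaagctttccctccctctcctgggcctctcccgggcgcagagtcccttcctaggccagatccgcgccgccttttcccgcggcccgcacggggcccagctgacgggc
IGFBP4, chr17:40443200-40443499, plus strand: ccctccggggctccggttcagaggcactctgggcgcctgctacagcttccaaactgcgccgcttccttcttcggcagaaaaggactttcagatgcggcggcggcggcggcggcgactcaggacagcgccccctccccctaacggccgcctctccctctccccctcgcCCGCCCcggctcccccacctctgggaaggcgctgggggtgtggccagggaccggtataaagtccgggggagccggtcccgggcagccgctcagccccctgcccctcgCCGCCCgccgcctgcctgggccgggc
IRS2, chr13:109786534-109786833, minus strand: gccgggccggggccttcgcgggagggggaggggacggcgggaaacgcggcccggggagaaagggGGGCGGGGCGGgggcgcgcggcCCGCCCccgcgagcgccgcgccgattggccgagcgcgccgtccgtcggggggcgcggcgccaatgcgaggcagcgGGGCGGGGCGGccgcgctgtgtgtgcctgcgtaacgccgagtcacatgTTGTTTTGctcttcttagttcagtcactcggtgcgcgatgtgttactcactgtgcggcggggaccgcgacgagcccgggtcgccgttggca
The RefSeq table gave 10 windows for 8 of the 10 members, and none was used here for IGF2 and IGFBP1. The HNF4 elements CAAAGTCCA and CAAAGTTCA, both of which contain CAAAG, were searched on both strands and matched none of the members' windows. They matched 0.384% and 0.296% of the 35116 windows in the table. CAAAACAA, known as an insulin response element, matched the minus strand of the IRS2 window and 1.68% of all windows. CAAAG matched IGFBP6 and 1 of the 3 IGFBP2 windows, against 47.5% of all. GGGCGG, the GC box, matched 9 of the 10 windows, the exception being 1 of IGFBP2, against 45% of all windows. The IGFBP6 window was 61.7% G and C, the INSR window 78.3%, the IGFBP4 window 74% and the IRS2 window 75.7%, with a median of 58.7% over all windows. CAAAG and GGGCGG were added to the search after the data had been seen. A match is a description of letters and no evidence of binding.

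By adjusted p in limma alone, a rule whose share of all genes is given below, IGF2 was lower in 9 of the 12 lines and higher in 2. Under that rule IGFBP6 was lower in 11 lines, and the insulin receptor was higher in the 9 lines outside isoforms 4 to 6. The IGF1 receptor was higher in 1 line and lower in 2. Fewer of these differences were large enough to be called. A call required a Benjamini-Hochberg adjusted p under 0.05 in limma and a difference of at least 1 in log2(TPM + 1). All 12 comparisons share the same 3 parental libraries, and the test covered the 15003 genes that averaged 1 TPM or more. Lines whose libraries all lie apart from the parental ones are named below as a description. The share of all genes that do so was not counted. Of the 10 members, 7 were tested, while IGFBP1, IGFBP3 and IGFBP4 fell under the minimum. The 7 gave 14 calls over the 12 lines, 1 higher and 13 lower. They were IGFBP6 in 7 lines, IGF2 in 6 and INSR in 1. Under the same rule, 4.52% of all tested genes were called for isoform 1, where 3 members were called. The share was 3.73% for isoform 2, 2.08% for isoform 7, 1.41% for isoform 8, 0.827% for isoform 9 and 1.7% for isoform 11, each with 2 members called. It was 0.573% for isoform 12, with 1 member called. No member was called for isoform 3 (background 0.807%), isoform 4 (0.54%), isoform 5 (0.293%), isoform 6 (0.247%) or isoform 10 (1.44%).

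By adjusted p alone, without a minimum size, 61 of the 84 member and line values passed, 13 higher and 48 lower. That rule also passed 58.5% of all genes for isoform 1, 55.3% for isoform 2, 26% for isoform 3 and 16.3% for isoform 4. It passed 14.8% for isoform 5, 10.1% for isoform 6, 39.6% for isoform 7 and 34.4% for isoform 8. It passed 22.7% for isoform 9, 37.3% for isoform 10, 38.5% for isoform 11 and 14.6% for isoform 12. The members passing by p alone numbered 7 of 7 for isoform 11, 6 for isoforms 1, 2, 7, 9 and 10, 5 for isoforms 3, 5 and 8, 4 for isoforms 4 and 12, and 1 for isoform 6. The median difference over the 7 members ran from -0.53 in isoform 1 to 0.08 in isoform 5, the only line where it was above 0. Over all genes the median was -0.11 in isoform 1 and 0.01 in isoform 5. In the authors' deposited table, all 14 calls also pass at 0.05 with the same sign, as do 58 of the 61. The exceptions among the 61 were IGF2 in isoform 4, IRS1 in isoform 7 and IRS2 in isoform 1. The authors' values also pass where those here did not, for IGFBP2 in isoform 6, IGF2 in isoform 12 and IRS1 in isoform 6. The same holds for IRS2 in isoforms 3, 6 and 12 and for IGF1R in isoforms 4 and 6.

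**Figure D1:**
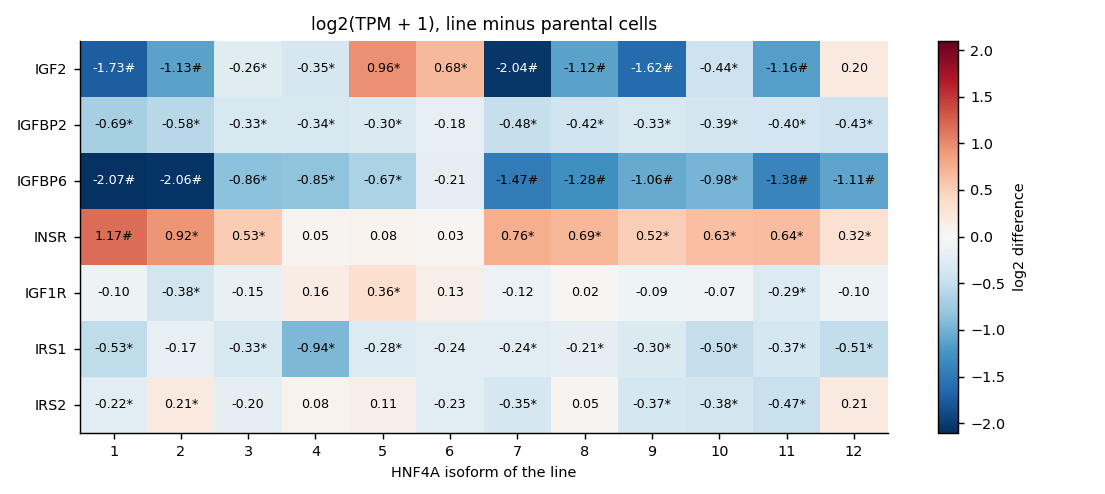
Difference in log2(TPM + 1) between each isoform line (columns, 1 to 12) and parental cells for the 7 tested members (rows), red higher and blue lower in the line; # marks a call and * an adjusted p under 0.05 (limma) with a difference under 1 in size. INSR is red in the isoform 1 column and near 0 in columns 4 to 6, and IGF2 is positive in columns 5 and 6.

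IGF2, the ligand, lies on chromosome 11 at 2129112 to 2149603 (GRCh38, GENCODE), on the minus strand. Its parental libraries held 11, 10.3 and 9.73 TPM. The isoform 7 line was lowest, with 1.87, 1.8 and 1.61 TPM. Isoform 1 held 2.58, 2.48 and 2.2 TPM, isoform 9 held 2.39, 2.6 and 3.08 TPM, isoform 11 held 4.22, 4.23 and 3.73 TPM, isoform 2 held 4.18, 4.43 and 3.97 TPM, and isoform 8 held 4.24, 4.11 and 4.33 TPM. Every library of these 6 lines was below every parental library, and the mean was 5.87 times lower in isoform 7 and 2.45 times lower in isoform 8. The differences in log2(TPM + 1) were -2.04 ± 0.09 (SE) for isoform 7, with an adjusted p of 1.22e-17, and -1.73 ± 0.09 for isoform 1, with 1.38e-16. They were -1.62, -1.16, -1.13 and -1.12 for isoforms 9, 11, 2 and 8.

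The isoform 5 line stood on the other side, with IGF2 at 22.4, 21.3 and 19.6 TPM, and isoform 6 at 18.3, 16.7 and 16.6 TPM. All 6 of these libraries lay above the parental ones. IGF2 rose by 0.96 ± 0.09 in log2(TPM + 1) in isoform 5 (adjusted p 4.06e-09) and by 0.68 ± 0.09 in isoform 6 (adjusted p 2.67e-06), both short of the minimum size of a call. Smaller decreases passed by p alone in isoform 3 (-0.26), isoform 4 (-0.35) and isoform 10 (-0.44). Isoform 3 did not pass for IGF2 in a limma fit without a minimum level (adjusted p 0.0558). In isoform 12 the libraries held 11.4, 11.8 and 12.9 TPM, a difference of 0.20 with an adjusted p of 0.124. In the order of means, the neighbours whose libraries overlapped were isoforms 3 and 4, 4 and 10, 8 and 2, 2 and 11, and 9 and 1, and no other neighbours did.

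The other ligand genes were close to absent. IGF1 reached at most 0.258 TPM, INS was listed at 0 in all 39 libraries, and the read-through gene INS-IGF2, which overlaps IGF2, reached at most 0.0224 TPM.

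Some of the genes around IGF2 had a similar pattern over the groups. H19, a long non-coding RNA gene that is imprinted together with IGF2, held 11.7, 10.8 and 10.9 TPM in parental cells. It held 2.09, 2.04 and 1.39 TPM in isoform 1 and 1.51, 1.63 and 1.21 TPM in isoform 7. In isoform 5 it held 23.4, 19.7 and 17.9 TPM. H19 was called lower in 6 lines, the 6 in which IGF2 was called, with differences from -2.31 in isoform 7 to -1.38 in isoform 9. H19 is among 8 genes that reach into the 300000 bases on either side of IGF2 and averaged at least 1 TPM. Over the 13 group means of log2(TPM + 1), Pearson's r with IGF2 was 0.98 for LSP1, 0.97 for H19, TNNI2 and SYT8, and 0.93 for KCNQ1. MRPL23, which lies between LSP1 and H19, gave -0.11, TSSC4 -0.05 and CD81 0.44, and none of these 3 was called in any line. LSP1, a leukocyte-specific actin-binding protein, was called lower in 4 lines, TNNI2 lower in 3 and higher in 1, SYT8 lower in 2, and KCNQ1 in none. These neighbours were chosen after the values of IGF2 had been seen. The group means come from the same libraries, so the correlations are descriptions. Genes on other chromosomes gave higher values with IGF2, KIF3C on chromosome 2 (0.986) and HOXC13 on chromosome 12 (0.982). The share of all genes that reach such values was not counted, so the likeness is not shown to be particular to this region.

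**Figure D2:**
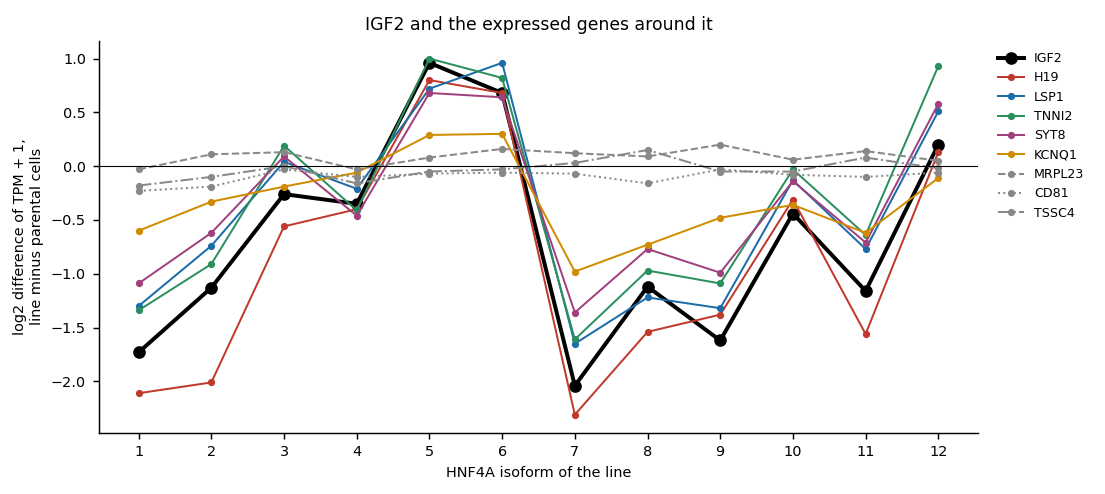
Difference in log2(TPM + 1) from parental cells in each of the 12 lines for IGF2 (thick black) and the 8 expressed genes within 300000 bases of it, joined by lines for reading only. H19, LSP1, TNNI2, SYT8 and KCNQ1 are lowest at isoform 7 and highest at isoform 5 or 6, as IGF2 is, while MRPL23, CD81 and TSSC4 (grey) stay near 0.

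IGFBP2, which binds IGF2 tightly, was the most abundant member, at 150 to 273 TPM over the 39 libraries. Its gene lies on chromosome 2 at 216632828 to 216664436. Parental libraries held 273, 250 and 247 TPM, and the isoform 1 line, the lowest, held 168, 158 and 150 TPM. In 11 lines every library lay below the parental ones, the exception being isoform 3, whose libraries of 247, 197 and 176 TPM reached the parental range. By p alone IGFBP2 fell in 11 lines, by 0.30 to 0.69 in log2(TPM + 1), with the isoform 6 line at -0.18 (adjusted p 0.144). No difference reached the size of a call. IGFBP2 made up 90% ± 1.46 (SD, n = 3) of the summed TPM of the 5 binding proteins in parental cells and 96% ± 0.321 in isoform 2.

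IGFBP6 lies on chromosome 12 at 53097436 to 53102345. Its RefSeq window shown above, with both CAAAG and a GC box, is set on a start that lies within this span. Parental libraries held 24.7, 31.1 and 28.9 TPM. The isoform 1 line held 6.46, 5.75 and 5.61 TPM and the isoform 2 line 5.56, 7.02 and 5.43 TPM, so their mean was 4.75 and 4.7 times lower. IGFBP6 fell by 2.07 ± 0.14 in log2(TPM + 1) in isoform 1 (adjusted p 3.23e-13) and by 2.06 ± 0.14 in isoform 2 (adjusted p 4.94e-13). It was also called lower in isoforms 7 (-1.47), 11 (-1.38), 8 (-1.28), 12 (-1.11) and 9 (-1.06). The libraries of these 7 lines ran from 5.43 to 14.1 TPM and did not overlap the parental ones. The isoform 9 call rests on 1 parental library: without parental replicate 2 the difference was -0.99.

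In the isoform 3 line, IGFBP6 was 22.7 TPM in the library with low HNF4A and 14 and 10.7 TPM in the others. The difference was -0.86 with all 3 libraries and -1.14 without that library, and the part of the low HNF4A in this was not tested. Isoform 10 gave -0.98, isoform 4 -0.85 and isoform 5 -0.67, all passing by p alone. The isoform 6 line, at 22.2, 25.8 and 24.6 TPM, overlapped parental cells and gave -0.21 with a 95% interval of -0.51 to 0.09 (adjusted p 0.413).

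IGFBP4, which inhibits IGF action until it is cleaved, had far lower levels than IGFBP6. Its mean was above that of parental cells in 9 lines, where the mean of IGFBP6 was below, while in isoforms 4 to 6 the means of both genes were below. It lies on chromosome 17 at 40443461 to 40457731. Parental libraries held 0.106, 0.164 and 0.118 TPM. The isoform 1 line held 1.84, 1.74 and 1.36 TPM and the isoform 2 line 1.05, 1.18 and 1.11 TPM, the only 6 libraries at 1 TPM or more. Isoform 7 held 0.965, 0.977 and 0.758 TPM, isoform 10 held 0.977, 0.965 and 0.992 TPM, and isoform 11 held 0.836, 0.947 and 0.53 TPM. All libraries of 9 lines were above parental cells, and the 3 libraries of isoform 6, at 0.0458, 0.0157 and 0.0291 TPM, were below. The mean was 12.7 times higher in isoform 1 and 8.6 times higher in isoform 2, while the log2(TPM + 1) scale shows 1.22 and 0.90, since the added 1 TPM understates changes of low genes.

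IGFBP4 was tested only in a fit without a minimum level, over 39252 genes. There it passed by adjusted p in isoforms 1 (2.61e-13), 2, 3, 7, 8, 10 and 11, with differences from 0.32 in isoform 3 to 1.22 in isoform 1. In that fit 25.8% of all genes passed for isoform 1, 24% for isoform 2, 9.49% for isoform 3, 16.5% for isoform 7, 13.4% for isoform 8, 14.9% for isoform 10 and 15.6% for isoform 11. IGFBP4 did not pass in isoform 4 (background 5.98%), isoform 5 (5.52%), isoform 6 (3.49%), isoform 9 (8.83%) or isoform 12 (5.37%). The authors' deposited table gives IGFBP4 a log2 fold change of 3.11 in isoform 1, with an SE of 0.268, and 2.43 in isoform 2, with an SE of 0.268. The mean normalised count behind them in the authors' deposited table is 73.2 and 50.6, and it is 5.80 for isoform 6.

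IGFBP1 and IGFBP3, 18.6 kb apart on chromosome 7, were at the edge of detection. IGFBP1 was listed at 0 in 26 of 39 libraries and reached 0.0956 TPM at most, in an isoform 3 library. IGFBP3, the main carrier of IGFs in serum, was listed at 0 in 36 of 39 libraries and reached 0.0306 TPM. Neither separated any line from parental cells. In the authors' deposited table the mean normalised count was at most 1.34 for IGFBP1 and 0.516 for IGFBP3. IGFBP5, which lies 7.67 kb from IGFBP2, reached at most 0.269 TPM.

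**Figure D3:**
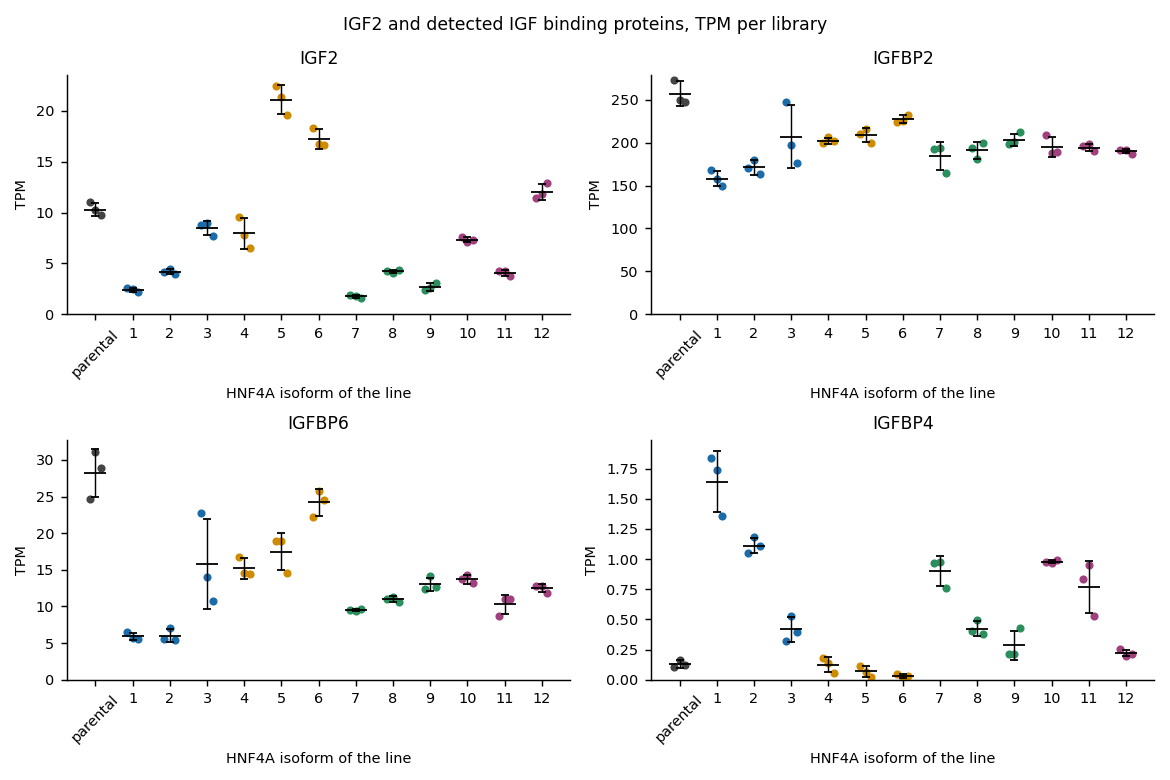
TPM (vertical axes, linear, from 0) of IGF2, IGFBP2, IGFBP6 and IGFBP4 in parental cells and the 12 isoform lines (horizontal axes); points are libraries, bars the mean and SD of 3, and colours mark isoforms 1 to 3, 4 to 6, 7 to 9 and 10 to 12. IGFBP6 is lowest and IGFBP4 highest in isoforms 1 and 2, in isoforms 4 to 6 the means of both lie below parental cells, and isoform 3 has the widest spread for IGFBP6.

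INSR, the insulin receptor, lies on chromosome 19 at 7112255 to 7294034, on the minus strand. Its RefSeq window shown above, with 4 GC-box matches, lies upstream of this span. Parental libraries held 9.53, 10.9 and 11.3 TPM. The isoform 1 line held 25, 25.6 and 24.6 TPM and the isoform 2 line 21, 21.6 and 20.3 TPM. Isoforms 7 to 12 and 3 ran from 12 to 19.5 TPM, and all their libraries were above the parental ones. INSR rose by 1.17 ± 0.09 in log2(TPM + 1) in isoform 1 (adjusted p 3.75e-12), its only call. By p alone it also rose in isoforms 2 (0.92), 7 (0.76), 8 (0.69), 11 (0.64), 10 (0.63), 3 (0.53), 9 (0.52) and 12 (0.32). In isoforms 4, 5 and 6 the libraries, at 10.4 to 12 TPM, overlapped parental cells. Their differences were 0.05, 0.08 and 0.03, with 95% intervals from -0.15 to 0.27 over the 3 lines.

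IGF1R, the type 1 IGF receptor, lies on chromosome 15 at 98648539 to 98964530 and ranged from 5.64 to 11.8 TPM over all libraries. Parental libraries held 7.45, 8.1 and 8.86 TPM. It passed by p alone higher in isoform 5, at 11.8, 10.4 and 9.86 TPM (0.36, adjusted p 0.0366). It passed lower in isoform 2, at 6.03, 6.09 and 5.9 TPM (-0.38, adjusted p 0.00643), and in isoform 11 (-0.29, adjusted p 0.0455). In the other 9 lines no difference was detected here, and the 95% intervals lay within -0.39 and 0.40. In the authors' deposited table isoforms 4 and 6 pass at 0.05, with log2 fold changes of 0.22 and 0.15. In the limma fit without a minimum level, isoforms 5 and 11 did not pass (adjusted p 0.0776 and 0.0943). The ratio of INSR to IGF1R transcripts was 1.3 ± 0.0418 (SD, n = 3) in parental cells, 3.34 ± 0.212 in isoform 1 and 3.49 ± 0.0555 in isoform 2. It was 1.19, 1.05 and 1.21 in isoforms 4, 5 and 6. IGF2R, the receptor that clears IGF2, held 16.3, 16.3 and 18.1 TPM in parental cells and ranged from 12.1 to 22.6 TPM over all libraries.

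IRS1, the adaptor of both receptors, lies on chromosome 2 at 226731317 to 226799759. Its parental libraries held 12, 12.6 and 13.4 TPM, above every library of all 12 lines, which are all set against these same libraries. How many of all genes lie apart in this way was not counted. The isoform 4 line was lowest at 6.45, 6.5 and 5.52 TPM. IRS1 fell there by 0.94 ± 0.08 (adjusted p 4.85e-10), short of a call, and by 0.21 to 0.53 in 9 other lines that passed by p alone. Isoform 2 gave -0.17 (adjusted p 0.0652) and isoform 6 -0.24 (adjusted p 0.0545). Isoform 8 did not pass in the limma fit without a minimum level (adjusted p 0.0865). Isoform 7 does not pass at 0.05 in the authors' deposited table. The isoform 4 line stood apart in IRS1, and its libraries did not overlap those of the next lowest line, isoform 1, at 8.36, 8.53 and 8.39 TPM.

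IRS2, a second adaptor, on chromosome 13 at 109752698 to 109786568, was lower, at 1.9 to 4.42 TPM. Parental libraries held 3.26, 3.48 and 3.34 TPM. It fell by p alone in isoforms 11 (-0.47), 10 (-0.38), 9 (-0.37), 7 (-0.35) and 1 (-0.22) and rose in isoform 2 (0.21). In the limma fit without a minimum level, isoforms 1 and 2 did not pass for IRS2 (adjusted p 0.0699 and 0.0766). The isoform 11 line held 2.05, 2.43 and 2 TPM and the isoform 2 line 4, 4.23 and 3.95 TPM. The ratio of IRS1 to IRS2 was 3.77 ± 0.211 in parental cells, 1.71 ± 0.132 in isoform 4 and 2.13 ± 0.15 in isoform 12. It was above the parental mean in isoforms 11 (4.48 ± 0.568), 7 (4.36 ± 0.155), 9 (4.27 ± 0.512) and 6 (3.88 ± 0.121). IRS4 reached at most 0.0423 TPM.

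**Figure D4:**
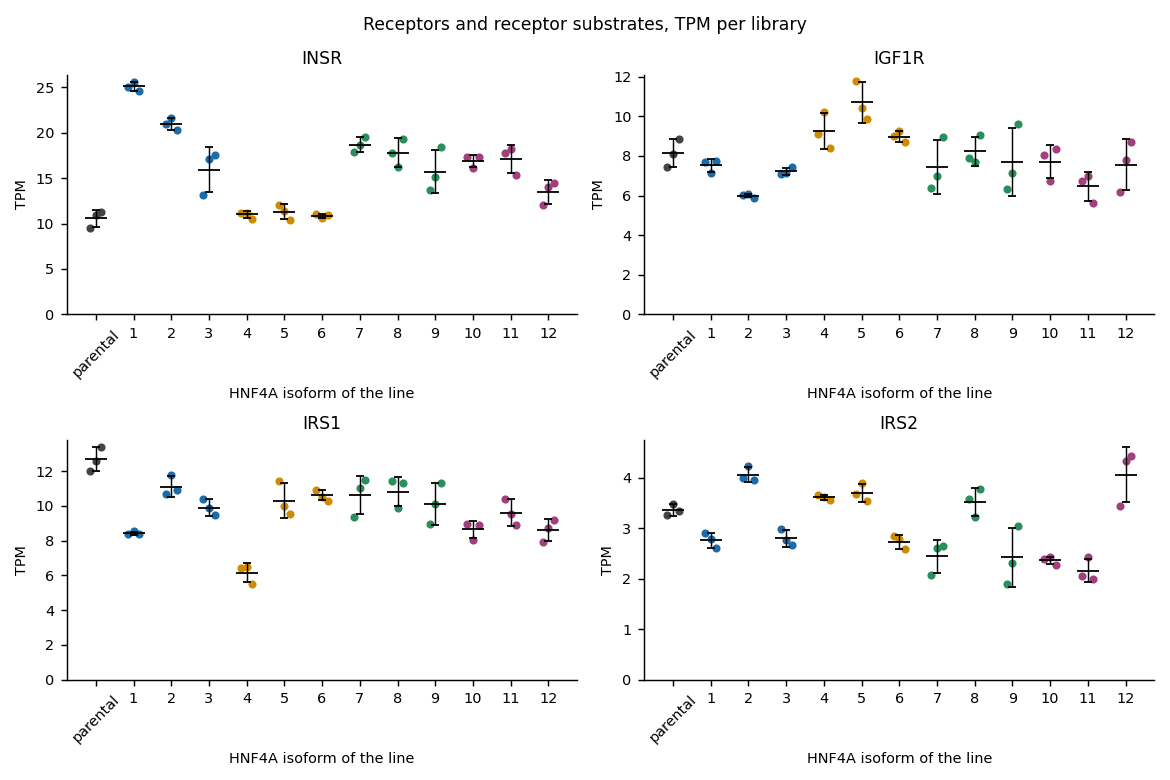
TPM (vertical axes, linear, from 0) of INSR, IGF1R, IRS1 and IRS2 in parental cells and the 12 isoform lines (horizontal axes); points are libraries, bars the mean and SD of 3, and colours mark isoforms 1 to 3, 4 to 6, 7 to 9 and 10 to 12. INSR in isoforms 4 to 6 sits at the parental level, and IRS1 is lowest in isoform 4.

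Lines were then set against each other in 10 pairs to ask where isoforms of different N-terminus or C-terminus differ. By the standard nomenclature, not the labels, isoforms 1 to 3 start at the P1 promoter, 4 to 6 add exon 1B, 7 to 9 start at the P2 promoter, and 3, 6, 9 and 12 have a shortened C-terminus. Each pair compares 2 lines. The pairs gave 9 member calls: IGF2 in 5, IGFBP6 in 3 and INSR in 1. Isoform 4 minus isoform 1, where 4.49% of all genes were called, had 3: IGFBP6 at 1.23, IGF2 at 1.38 and INSR at -1.12 (adjusted p 9.91e-12). Isoform 5 minus 2, background 4.03%, had IGFBP6 at 1.40 and IGF2 at 2.09 ± 0.09 (adjusted p 2.16e-18), from 4.19 to 21.1 TPM on average. Isoform 6 minus 3, background 0.7%, had none, with IGF2 at 0.94 and IGFBP6 at 0.65 passing by p alone, as 21.6% of all genes did.

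Isoform 7 minus 1 (background 1.42%) and isoform 8 minus 2 (1.54%) had no member call. Isoform 9 minus 3, background 0.56%, had IGF2 at -1.37, from 8.5 to 2.69 TPM on average. Isoform 3 minus 1, background 1.45%, had IGFBP6 at 1.21 and IGF2 at 1.47, and without the library with low HNF4A the IGFBP6 difference was 0.94 and no longer a call. Isoform 6 minus 4, background 0.493%, had IGF2 at 1.04, which fell under the minimum size without 1 of the isoform 4 libraries (0.92) or without isoform 6 replicate 1 (0.99). Isoform 9 minus 7 (0.42%) and isoform 12 minus 10 (0.533%) had none. Their IGF2 differences of 0.42 and 0.64 passed by p alone, as did 15.4% and 17.8% of all genes. These pairs set isoforms 3, 6, 9 and 12 against 1, 4, 7 and 10. Against isoforms 2, 5, 8 and 11, in differences that were not tested, mean IGF2 was higher in isoform 3 (8.5 against 4.19 TPM) and isoform 12 (12 against 4.06 TPM). It was lower in isoform 6 (17.2 against 21.1 TPM) and isoform 9 (2.69 against 4.22 TPM), and the libraries overlapped in none of these 4. Over the 10 pairs, 36 member values passed by p alone. They were 6 of 7 members in isoform 4 minus 1, where 55.1% of all genes passed, 5 in 5 minus 2 (53.9%), 5 in 7 minus 1 (40%) and 5 in 3 minus 1 (41.1%). There were 4 in 6 minus 4 (11.8%), 3 in 6 minus 3, 3 in 8 minus 2 (44.2%), 3 in 12 minus 10, 1 in 9 minus 3 (18.7%) and 1 in 9 minus 7.

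With the 12 line means as units and N-terminal and C-terminal forms as additive terms, isoforms 4 to 6 minus 1 to 3 gave 2 member calls against a background of 1.95%. IGFBP6 was higher by 1.09 ± 0.21 (adjusted p 0.00623) and IGF2 by 1.47 ± 0.37 (adjusted p 0.0152), each over 3 lines against 3. The 2 sets of lines did not separate fully, since the libraries of isoforms 3 and 4 overlapped for both genes. Mean IGF2 was 8.5 TPM in isoform 3 and 7.96 TPM in isoform 4, and mean IGFBP6 was 15.8 and 15.2 TPM. In the fit without a minimum level the IGF2 adjusted p was 0.0613, so that call was lost. By p alone, which passed 34.6% of all genes, IGFBP2 (0.26) and IGF1R (0.43) were also higher, and INSR was lower by 0.82 ± 0.10 (adjusted p 0.00115). No member was called in isoforms 7 to 9 minus 1 to 3 (background 0.52%), in 10 to 12 minus 7 to 9 (0%) or in the short C-terminus against the other forms (0.00667%). At an unadjusted p under 0.05 in limma, these contrasts held 0, 1 and 4 of the 7 members, against 31.9%, 7.55% and 18.2% of all genes. IGF2 was 0.63 ± 0.27 higher with the short C-terminus, with an adjusted p of 0.271.

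Genes with the most similar group means were listed for the 4 members with the most calls or largest differences, by Pearson's r over the 13 group means of log2(TPM + 1). For INSR these were FGD4 and GDA, at 0.993, and CIB1, at 0.991. For IGFBP6 they were APP (0.979), SIPA1 (0.974) and STAMBPL1 (0.97), and for IGF2 KIF3C (0.986), HOXC13 (0.982) and LSP1 (0.978), which lies 237 kb from IGF2. For IRS1 the closest was SETD2 at 0.87. Among members, IGFBP6 followed IGFBP2 (0.96), and INSR ran with IGFBP4 (0.94) and against IGFBP6 (-0.91). Total HNF4A gave -0.57 with IGFBP2, -0.47 with IRS1, -0.43 with IGFBP6 and 0.29 with INSR. With the other 4 it gave values from -0.16 to 0.16, IGF2 (-0.14) among them. Parental cells lay far from every line in HNF4A, at 31.47 TPM against line means of 613.5 to 1071 TPM. The HNF4A values therefore largely set the lines against parental cells. They do not show a relation to the level of HNF4A among the lines, which was not tested.

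Other genes of the pathway were counted in 5 lists. Of 20 further IGF system genes 7 were tested, of 32 receptor adaptors 30, of 20 PI3K and AKT genes 19, of 22 mTORC1 and AKT target genes 22, and of 20 insulin- and FOXO-responsive genes 14. Over the 12 lines, the IGF system list gave 4 calls higher and 2 lower, and the adaptors 6 and 2. The PI3K and AKT genes gave 1 and 1, and the insulin- and FOXO-responsive genes 2 and 0. Under the same rule, from 0.247% (isoform 6) to 4.52% (isoform 1) of all tested genes were called per line. The list counts were not tested against these shares. In isoform 1, the line with the highest background, 1 IGF system gene was called higher and 1 lower, 3 adaptors higher, and 1 insulin- or FOXO-responsive gene higher. No PI3K or AKT gene was called there. No mTORC1 or AKT target gene was called in any line. At an adjusted p under 0.05 alone, 5 of those 22 were higher and 6 lower in isoform 1, where 58.5% of all genes passed. Their median difference was 0.01, against -0.11 over all genes.

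IGF2BP3, an RNA-binding protein that binds IGF2 transcripts, was called higher in 4 lines, with 10.2 ± 1 TPM (SD, n = 3) in isoform 1 against 1.63 ± 0.128 TPM in parental cells. The other 3 were isoforms 5 (1.26), 8 (1.56) and 12 (1.61). By adjusted p in limma alone, IGF2BP3 was also higher in isoforms 2 (0.97), 10 (0.85) and 3 (0.25). Under that rule it was lower in isoforms 11 (-0.80), 9 (-0.44), 4 (-0.38) and 7 (-0.31). IGFBP7, a binding-protein relative with low affinity for IGFs, fell in isoform 2 (-1.84) and isoform 1 (-1.56). Its libraries held 39.2, 34.6 and 36 TPM in parental cells and 10.8, 9.56 and 8.33 TPM in isoform 2. The docking proteins GAB1 (1.61 and 1.55) and DOK4 (1.73 and 1.55) and the glucose transporter SLC2A1 (1.23 and 1.07) rose in isoforms 1 and 2, and GAB2 rose by 1.04 and 1.00. CAV1, a caveolar scaffold, fell in isoforms 4 (-1.48) and 5 (-1.37), and TRIB2, an AKT-binding pseudokinase, rose in isoform 4 (1.15) and fell in isoform 2 (-1.02).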

How the data were processed

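RNA was poly(A)-selected and sequenced from 39 libraries of 13 groups, per the labels' protocols. Per the submitters' processing notes, which give no roles, Trimmomatic 0.36, FastQC 0.11.5, kallisto 0.44.0, DESeq2 1.22.2 and GRCh38.p12 were used. The authors deposited TPM per gene and library, and, per the file headers, log2 fold changes, adjusted p-values and mean normalised counts per line (a signal column). Per the labels the library kit keeps strand, and use of strand in counting is not given in the sources used here. For HNF4A, the 12 rows of its isoforms were summed.

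limma 3.58.1 (R 4.3.3) was fitted to log2(TPM + 1) over the 39 libraries, with 13 group means, 26 residual degrees of freedom and a mean-variance trend. The 15003 genes averaging 1 TPM or more were tested, with Benjamini-Hochberg adjustment within each comparison. In a simulation with independent noise, 200 genes of higher level were given shifts larger than the minimum size of a call. Of these 199 were called, and 0 unchanged genes were. Smaller shifts and shifts of low genes were not simulated, so the counts do not cover them. The members and lists were chosen with earlier results of these data known. All members were named, along with fixed relatives, up to 10 pathway genes called in the most lines, and the 3 genes most like 4 members. Alternatives changed the pseudocount, filter, scaling, minimum fold, trend, groups in the fit, replicate block and libraries.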

Additional observations from a re-analysis of the deposited data

Results flagged for a closer look

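Differences between lines under the same contrast with parental cells were picked out where the test of the line-to-line difference itself was called in limma, at 3 libraries a line and on the log2(TPM + 1) scale. Between isoform 4 and isoform 1, IGFBP6 differed by 1.23, IGF2 by 1.38 and INSR by -1.12. Between isoform 5 and isoform 2, IGFBP6 differed by 1.40 and IGF2 by 2.09. Between isoform 9 and isoform 3, IGF2 differed by -1.37. Between isoform 3 and isoform 1, IGFBP6 differed by 1.21 and IGF2 by 1.47. Between isoform 6 and isoform 4, IGF2 differed by 1.04. Each isoform is 1 line, so a difference of isoform and a difference between lines cannot be told apart.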

How the results depend on the processing

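The 14 member calls over the 12 lines numbered 14 to 17 under the other settings tried, 13 to 15 with 1 library left out, and 61 without a minimum fold change. The 9 calls over pairs of lines numbered 8 to 10, and 36 without a minimum fold change, a rule that 11.8% (isoform 6 minus 4) to 55.1% (isoform 4 minus 1) of all genes passed. The 2 class calls became 1 without a filter and 5 without a minimum fold change. Among the 84 tested member and line values no called sign reversed. Without a minimum fold change but after median-of-ratios scaling, an alternative chosen after seeing the data, 59 passed by p alone, 14 higher and 45 lower. That scaling moved the median of all genes in isoform 1 from -0.11 to 0.02 and brought INSR in isoform 2 to a call (1.04). It took IGF2 in isoform 6 minus 4 to 1.00 and out of the calls, as did leaving out isoform 6 replicate 1 (0.99) or 1 isoform 4 library (0.92). IGF2 in isoform 5 became a call at a pseudocount of 0.1 (1.02), IRS1 in isoform 4 likewise (-1.03), and IGFBP6 in isoform 10 in 4 settings (-1.01 to -1.07). The cause was not tested.

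With the replicate block the counts were 14 over the lines and 9 over the pairs. Whether the numbers pair the samples is not known. Of 30 same-numbered pairs of a line and a parental library, 4 had a correlation of deviations over 0.1, with a median of 0.05. Low correlations cannot show that same-numbered libraries were handled apart. Isoform 4 and 5 columns carry no usable number. TPM keeps no depth, so no limit of detection per library was set for IGFBP1 and IGFBP3.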
